A study of Mus musculus with 8 samples.

Results

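The genes described here mark a fetal-like state of regenerating gut epithelium: Ly6a, Anxa1, Anxa3, Anxa8, Clu, Krt7, Msln, Sprr1a and Emp1. They were chosen by name, and a gene was measured by a probe set whose platform annotation gives that symbol alone. Of the 9 genes, 8 were found in this way among the 22180 genes tested. Ly6a had no such probe set in the annotation used, so its level was not analysed here. Emp1 had 2 probe sets, and the one with the higher mean over all arrays was used.

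When the colon epithelium is wounded, cells at the wound margin and in the new crypts can lose part of the adult crypt programme and switch on genes of the fetal gut. Matrix stiffness and the transcriptional coactivators YAP and TAZ, which act with TEAD and AP-1 factors on DNA, are known to drive this state in mouse colitis. Ly6a, also called Sca-1, is its usual surface marker, and annexins, clusterin and keratin 7 are among the genes that accompany it.

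The samples came from the middle colon of 8 female mice, 4 wild type (Trim58+/+) and 4 knockout (Trim58-/-), aged 9 weeks. The labels give C57BL/6-Trim58tm2313Arte as the strain of both groups. All 8 mice drank 4% dextran sodium sulfate (DSS), a sulfated polysaccharide toxic to colon epithelium, for 7 days and plain water for 5 days before the colon was sampled on day 12. Trim58 encodes a tripartite motif protein that acts as an E3 ubiquitin ligase. Each mouse gave 1 array, so the replicates are separate animals, and the number of arrays limits the precision. With no untreated colon in the series, the data show the genes under colitis only and not whether colitis induced them.

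Values are array signals on the log2 scale, with array medians of 5.73 to 5.83. Trim58, the deleted gene, read 5.22, 5.07, 5.18 and 5.03 in wild type replicates 1 to 4 and 4.91, 5.37, 4.82 and 5.11 in the knockouts. The genotypes overlapped, so this probe set gives no check of the labels, and where its probes lie relative to the deletion is not known here. Colon epithelium was present in every sample: the epithelial adhesion gene Epcam read between 11.55 and 11.83 and the mucin gene Muc2 between 13.41 and 13.66. These genes show presence only, and the colon epithelium markers as a list are given further on. Pancreatic acinar genes averaged 10.11, 11.06 and 10.70 in knockout replicates 1, 2 and 4, against 5.47 in knockout replicate 3 and 5.59 to 5.72 in wild type. Neutrophil markers averaged 7.26 to 7.94 in the knockouts and 5.90 to 6.22 in wild type.

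None of the 8 measured genes passed the limma test between the genotypes across all genes. The limma adjusted p of the 8 lay between 0.243 and 0.998, where a call needs a value under 0.05. Of all genes tested, 0.577% were called, 0.392% higher and 0.185% lower in the knockout, so 0 of 8 is close to what the background alone gives. At an unadjusted limma p under 0.05, Emp1 and Clu were above wild type in the knockout and Anxa3 was below it, which makes 2 of 8 in the one direction and 1 of 8 in the other. The same threshold took in 6.22% of all genes upward and 8.1% downward. The median difference of the 8 genes was 0.04, beside -0.01 over all genes, with 5 above 0 and 3 below, where 46.1% of all genes were above 0. Emp1 and Clu had the largest differences, 0.57 and 0.52, and 7 of the 8 genes had overlapping genotypes. In bulk tissue, fewer cells of a type and less RNA per cell cannot be told apart.

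**Figure D1:**
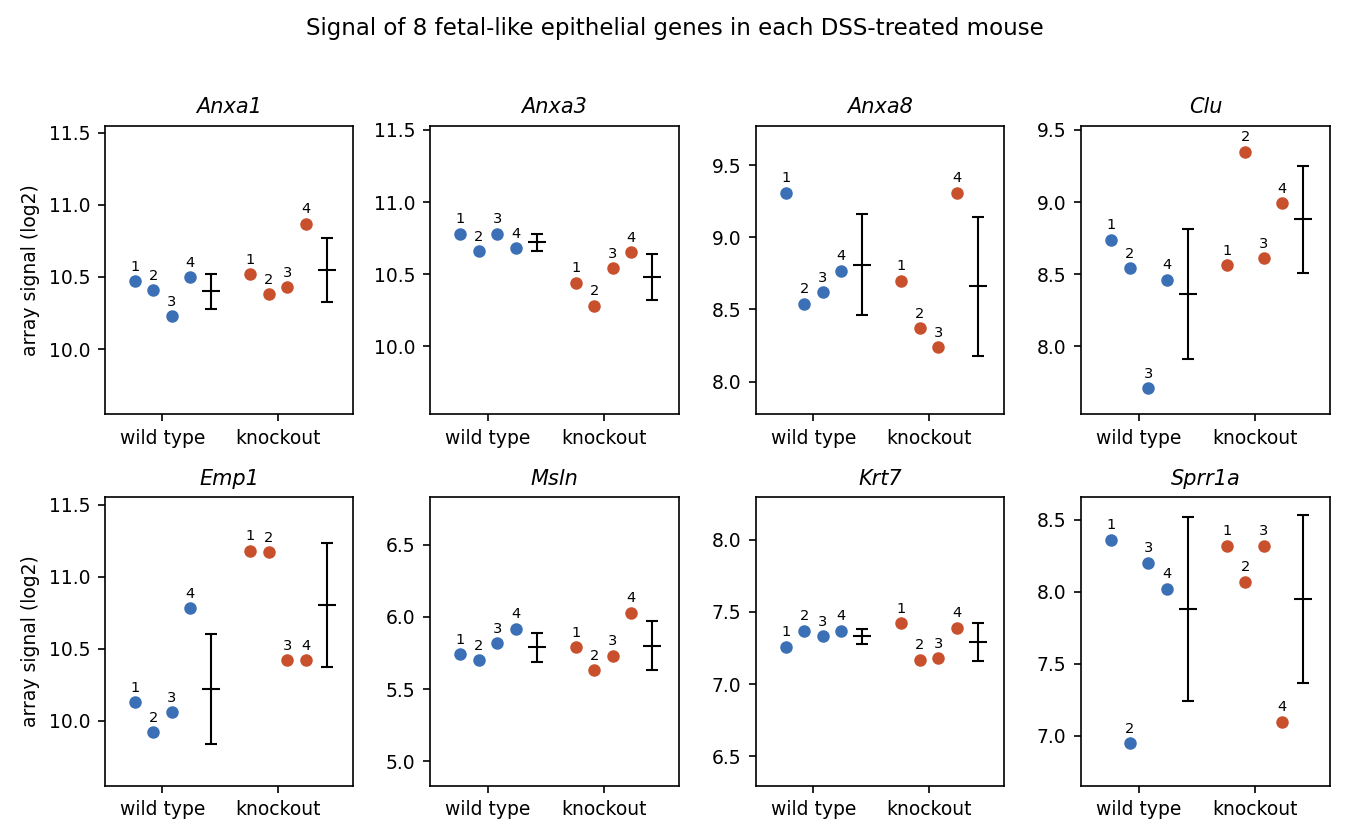
Array signal (log2, each panel spans 2 units) of the 8 measured genes in each mouse, with the replicate number above each point and the mean and SD of the 4 mice beside each group. Clu, Emp1, Anxa8 and Sprr1a scatter widely within both genotypes, and in Sprr1a wild type replicate 2 and knockout replicate 4 lie below the other 6 mice.

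Annexins are calcium-dependent proteins that bind membrane phospholipids, and 3 of them belong to the fetal-like set. Anxa1, which limits leukocyte recruitment and promotes wound closure, read 10.47, 10.41, 10.23 and 10.50 in wild type replicates 1 to 4 and 10.52, 10.38, 10.43 and 10.87 in the knockouts. Knockout replicate 4 was the highest of all and the other 3 knockouts lay near the wild type values. Its mean was 10.40 ± 0.12 in wild type and 10.55 ± 0.22 in the knockout (SD, n = 4 each), a difference of 0.15 (standard error 0.12, limma adjusted p = 0.624).

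Anxa3 was the single gene of the set whose genotypes did not overlap. It read 10.78, 10.66, 10.78 and 10.68 in wild type and 10.44, 10.28, 10.54 and 10.65 in the knockout. All 4 knockout values were below all 4 wild type values, but knockout replicate 4 lay just under wild type replicate 2. The difference was -0.25 (95% interval -0.45 to -0.05, limma adjusted p = 0.243), which corresponds to 1.19-fold lower. Of all genes, 5.02% had the knockout entirely below wild type and 3.79% entirely above it, and the difference did not pass the adjusted threshold.

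Anxa8 varied widely between the mice of each genotype. Its values were 9.31, 8.54, 8.62 and 8.77 in wild type and 8.70, 8.37, 8.24 and 9.31 in the knockout. Wild type replicate 1 and knockout replicate 4 stood highest, at the same level, and the genotypes overlapped over most of their range. The difference was -0.15 with an interval of -0.68 to 0.37 (limma adjusted p = 0.831), and it was 0.01 without wild type replicate 1.

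Among the other annexins, 0 of 8 measured were called and 5 had a difference above 0, with a median of 0.10 (1 higher and 2 lower at an unadjusted limma p under 0.05). Anxa2, which forms a complex with S100a10 at the membrane, had a difference of 0.24 and Anxa13, an annexin of gut epithelium, -0.23 (limma adjusted p = 0.253 and 0.235). Anxa3 and Anxa13 were thus both below wild type while Anxa1 and Anxa2 were both above it, and no one of the 4 passed the test.

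Clu encodes clusterin, a secreted chaperone that also marks rare cells appearing in the crypt after damage. It read 8.74, 8.54, 7.71 and 8.46 in wild type and 8.56, 9.35, 8.61 and 8.99 in the knockout. Wild type replicate 3 was the lowest by a wide margin, knockout replicate 2 the highest, and the genotypes overlapped. The means were 8.36 ± 0.45 and 8.88 ± 0.37 (SD, n = 4 each), a difference of 0.52 with an interval of 0.00 to 1.03 (limma adjusted p = 0.348). Without wild type replicate 3 the difference was 0.30. That array was also the lowest of the wild types for the smooth muscle markers (10.47, beside 10.88 to 10.89 in the others), the fibroblast markers (9.23, beside 9.42 to 9.64) and the macrophage markers (7.49, beside 7.92 to 8.50). Knockout replicates 2 and 3 were lower still for the smooth muscle markers, at 10.13 and 10.20, and knockout replicate 2 was the highest mouse for Clu. The part of these cell types in the Clu signal was not tested.

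Emp1 encodes epithelial membrane protein 1, a small protein that spans the membrane of many epithelia. Its values were 10.13, 9.92, 10.06 and 10.78 in wild type and 11.18, 11.17, 10.42 and 10.42 in the knockout. Knockout replicates 1 and 2 exceeded every wild type mouse, whereas replicates 3 and 4 were below wild type replicate 4. The difference was 0.57 (95% interval 0.06 to 1.09, limma adjusted p = 0.289), or 1.49-fold. With the mean of the pancreatic acinar genes as a covariate it was 0.24 for Emp1 and 0.21 for Clu. The standard errors were 0.34 and 0.35, beside 0.23 for each gene without the covariate. That mean was high in knockout replicates 1, 2 and 4 and in no wild type mouse, so only knockout replicate 3 separates it from genotype. Knockout replicate 3, which lacked the pancreatic signal, read 8.61 for Clu, within the range of the other knockouts. For Emp1 it read 10.42, the same as knockout replicate 4, where the pancreatic mean was high, and both were the lowest knockouts. The part of pancreatic tissue in the Emp1 and Clu differences was not tested. The second Emp1 probe set, far dimmer at 3.23 to 4.46, gave 0.25 with a standard error of 0.27. There wild type replicate 4 and knockout replicate 1 were high and the other 6 arrays lay between 3.23 and 3.57. The relatives Emp2, Emp3 and Pmp22 were each below 0 with a median of -0.11, and 0 of 3 were called by limma (1 lower at the unadjusted threshold).

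Msln, the surface protein mesothelin, is carried by mesothelial cells of the gut wall as well as by regenerating epithelium. It read 5.74, 5.70, 5.82 and 5.92 in wild type and 5.79, 5.63, 5.73 and 6.03 in the knockout. These values lay around the array medians of 5.73 to 5.83, and RMA compresses differences of dim probe sets. Detection calls were not analysed, so how far the signal stands above background is not known. The genotypes overlapped, with 1 knockout above and 1 below every wild type mouse, and the difference was 0.00 (95% interval -0.22 to 0.22, limma adjusted p = 0.998). The highest mouse of each genotype was replicate 4. The average of the 9 mesothelial markers was also highest there, at 6.21 against 5.71 to 5.80 in wild type and at 6.02 against 5.75 to 5.92 in the knockout. The part of mesothelium in the Msln signal was not tested. By limma 0 of the 9 mesothelial markers were called, 0 of them also at the unadjusted threshold, and their median difference was -0.05.

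Krt7, an intermediate filament protein of simple ducts and of the fetal gut, was the steadiest of the set. Its values were 7.26, 7.37, 7.33 and 7.37 in wild type and 7.42, 7.17, 7.18 and 7.39 in the knockout. The knockouts fell on both sides of the wild type range. The interval of the difference, -0.23 to 0.14, bounds a change to at most 1.17-fold lower or 1.11-fold higher (limma adjusted p = 0.875). The keratins of simple gut epithelium, Krt8, Krt18, Krt19 and Krt20, had differences between -0.24 and -0.09, with 0 of 4 called by limma at either the adjusted or the unadjusted threshold.

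Sprr1a encodes a small proline-rich protein of the cornified envelope that also appears in injured tissues. It read 8.36, 6.95, 8.20 and 8.02 in wild type and 8.32, 8.07, 8.32 and 7.10 in the knockout. One mouse of each genotype, wild type replicate 2 and knockout replicate 4, was low, and the other 6 lay between 8.02 and 8.36. The span over all mice was 2.66-fold. The difference was 0.07 with an interval of -0.68 to 0.82 (limma adjusted p = 0.954), which reaches from 1.60-fold lower to 1.76-fold higher. It was -0.24 without wild type replicate 2 and 0.35 without knockout replicate 4. Squamous epithelium markers averaged 5.14 and 5.57 in the 2 low arrays, the lowest and the highest of all 8. Of 10 measured relatives of the Sprr family 0 were called by limma (1 lower at the unadjusted threshold) and 9 were below 0, with a median of -0.02. Their average ran from 4.70 to 4.99 over the 8 arrays, below the array medians of 5.73 to 5.83. At such dim signals the direction of small differences says little.

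The promoters of the set were searched for AP-1 and TEAD motifs, since these factors are tied to the fetal-like state. RefSeq windows of build GRCm38.p6, 250 bases before to 50 bases after a transcript start, matched 5 of the 9 genes (Anxa1, Anxa8, Krt7, Sprr1a and Emp1, the last with 2 windows). The AP-1 letters TGANTCA, on either strand, occurred 2 times in Sprr1a and 2 times in 1 of the Emp1 windows and in none of the others, whereas 7.81% of 32851 windows held at least 1 match and 0.46% at least 2. The TEAD letters GGAATG, on either strand, occurred once, in Anxa1, and 14.7% of windows held them. The stretches that hold the matches are shown, and a link between a match and the level or spread of a gene was not tested. Capitals mark the motif, and each sequence reads 5′ to 3′ on the gene's strand:
Sprr1a, 250 bases upstream of the start, chr3:92485882-92486131, minus strand: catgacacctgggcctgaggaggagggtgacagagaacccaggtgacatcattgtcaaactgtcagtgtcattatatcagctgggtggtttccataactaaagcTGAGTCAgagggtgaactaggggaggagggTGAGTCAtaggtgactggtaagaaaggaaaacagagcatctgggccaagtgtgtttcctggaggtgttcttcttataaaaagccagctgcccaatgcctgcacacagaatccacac
Emp1, first match, chr6:135362775-135362804, plus strand: gtctgtgtgtcTGAGTCAgagggagctaca
Emp1, second match, chr6:135362895-135362924, plus strand: taaatccagacTGATTCAtagaaactcctt
Anxa1, TEAD letters, chr19:20390890-20390919, minus strand: actgcactgaacCATTCCtgtgaggaataa
In Sprr1a the matches began 146 and 116 bases before the start, in Emp1 145 and 25 bases before it, and in Anxa1 236 bases before it. A match describes the letters only.

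**Figure D2:**
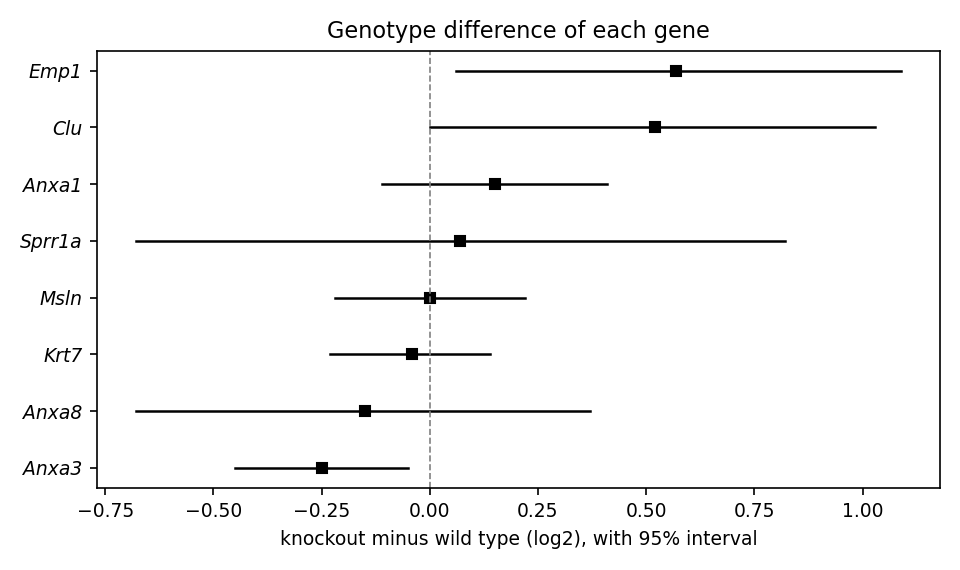
Difference between knockout and wild type (log2) for each of the 8 genes, with the limma 95% interval as a line. Anxa3 (-0.45 to -0.05), Emp1 (0.06 to 1.09) and, barely, Clu (0.00 to 1.03) lie apart from 0 before adjustment over all genes, and the intervals are widest for Sprr1a and narrowest for Krt7.

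The genes of the set split into 4 steady and 4 variable ones. The SD between mice of a genotype, pooled over both, was 0.61 for Sprr1a, 0.42 for Anxa8, 0.41 for Clu and 0.41 for Emp1. Only 2.56% of all genes had an SD over 0.4, and the share with a larger SD than Sprr1a was 0.537%. Krt7, Anxa3, Msln and Anxa1 were at 0.10, 0.12, 0.14 and 0.18, near the median of 0.15 over all genes. Msln read around the array medians, where a small SD can also come from a dim signal. Within a genotype the 4 variable genes spanned 1.71-fold (Anxa8) to 2.66-fold (Sprr1a) in wild type and 1.69-fold (Emp1) to 2.34-fold (Sprr1a) in the knockout.

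Sprr1a was 0.93 below its genotype mean in wild type replicate 2 and 0.85 below it in knockout replicate 4, where Anxa8 was 0.65 above. Clu was 0.65 below its mean in wild type replicate 3, while Emp1 was 0.56 above its mean in wild type replicate 4. Knockout replicate 4 was the highest knockout for 4 genes, the 3 annexins and Msln, and the lowest for Sprr1a and Emp1. Wild type replicate 1 was the highest wild type for 3 genes, Sprr1a, Anxa8 and Clu. Wild type replicate 2 was the lowest wild type for 5 genes and the highest for 0. Averaged over the 8 genes after centring each on its mean, wild type replicates 2 and 3 stood at -0.23 and -0.15, and the other 6 mice between -0.06 and 0.12. Of all other genes, those with the smallest root mean square distance to this averaged profile over the 8 arrays were Basp1, Adgra2, Il16, Prss52 and Serpinb9d (0.0378 to 0.0585 on the log2 scale).

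**Figure D3:**
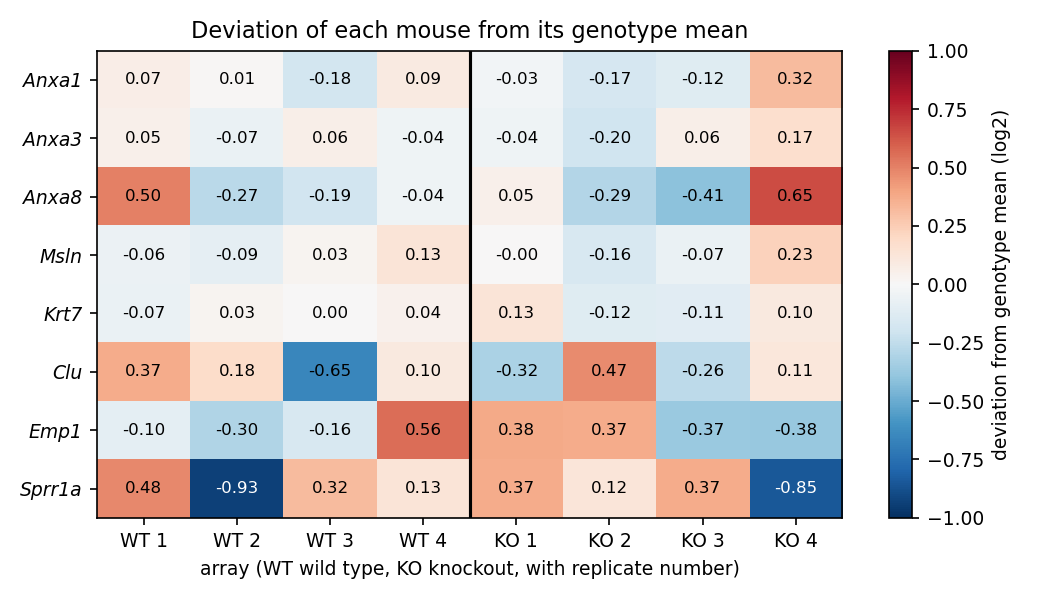
Deviation of each mouse from the mean of its genotype (log2, colour and number) for the 8 genes, with wild type mice left and knockout mice right of the line. In knockout replicate 4 the 3 annexins and Msln are above their mean and Sprr1a is 0.85 below it, so the genes do not move as a block.

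Further genes of the fetal-like or injured epithelium had mostly positive differences, but none passed the limma test. Of 21 measured, 0 were called, 15 were above 0, and the median difference was 0.16. At an unadjusted limma p under 0.05, 8 were higher and 3 lower, where 6.22% and 8.1% of all genes were. The list was chosen with earlier results of these data known. The list averaged 8.45 to 8.60 in the knockouts and 8.15 to 8.36 in wild type, so the genotypes did not overlap in this average. The neutrophil markers did not overlap either, at 7.26 to 7.94 in the knockouts and 5.90 to 6.22 in wild type. The part of leukocytes in the signals of this list was not tested. Il33, an alarmin cytokine of epithelial and stromal nuclei, read 6.83, 6.58, 5.96 and 6.99 in wild type and 7.88, 8.57, 7.39 and 8.10 in the knockout. Every knockout exceeded every wild type mouse, as in 3.79% of all genes. The difference was 1.40, and the limma adjusted p of 0.0516 missed the threshold. Il33 was called in 6 of 18 alternative fits. Among the 8 fits without 1 array it was called in 1, the one without knockout replicate 3 (limma adjusted p = 0.0170), and the others reached 0.171. With the pancreatic covariate, which follows genotype apart from knockout replicate 3, the Il33 difference was 0.80 (limma adjusted p = 0.822). Its standard error was 0.33 in that fit, beside 0.26 without the covariate. S100a11, a calcium-binding partner of annexins, differed by 0.53 (limma adjusted p = 0.0710). It was called in 3 of 18 alternative fits. Among the 8 fits without 1 array it was called in 1, the one without wild type replicate 4 (0.0443), and the others reached a limma adjusted p of 0.218. Krt17, a keratin of wounded epithelium chosen after its value was known, had a difference of -0.42 (limma adjusted p = 0.251), opposite to Il33.

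The YAP and TAZ targets were centred near 0. In a list of 22 targets, 21 were measured, 0 were called and 12 were above 0, with a median of 0.03. At the unadjusted limma threshold 3 were higher and 2 lower. Ccn1, a matricellular protein and classic YAP target, read 7.41, 7.68, 7.87 and 7.88 in wild type and 8.95, 9.07, 7.95 and 8.63 in the knockout. Knockout replicate 3 was close to the upper wild type mice and the other knockouts were clear of them, and the difference was 0.94 (limma adjusted p = 0.0924). Ccn1 was called in 1 of 8 fits without 1 array, the one without knockout replicate 3 (limma adjusted p = 0.00502), and the others reached 0.256. With the pancreatic covariate, which only knockout replicate 3 separates from genotype, its difference was 0.28 (standard error 0.21, limma adjusted p = 0.96). Myof, a membrane repair protein, differed by 0.45 (limma adjusted p = 0.0657). It too was called in 1 of 8 such fits, without knockout replicate 3 (limma adjusted p = 0.0384, the others up to 0.216). Over all 18 alternative fits Myof was called in 3 and Ccn1 in 1. With the pancreatic covariate Myof was at 0.28 (standard error 0.13, beside 0.09 without it, limma adjusted p = 0.876). Of 16 measured genes for Hippo kinases, YAP, TAZ, TEAD factors and their regulators, 0 were called by limma, with a median of 0.04 and 1 in each direction at the unadjusted threshold.

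The adult crypt stem and Wnt target genes, which the fetal-like state is known to replace, had a median difference of -0.10, with 9 of 14 below 0. At the unadjusted limma threshold 2 were higher and 3 lower. Lgr5, the receptor that marks these stem cells, varied from 5.54 to 6.69 in wild type and from 5.73 to 6.48 in the knockout (difference -0.20, limma adjusted p = 0.767). Nkd1, a Wnt feedback inhibitor, had -0.36 (limma adjusted p = 0.155). The 1 call of the list was upward: Cd44, an adhesion receptor that leukocytes also carry, read 7.43 to 7.62 in wild type and 7.93 to 8.32 in the knockout. Its difference of 0.57 passed (limma adjusted p = 0.0327), and it passed in 2 of 8 fits without 1 array, those without knockout replicate 3 and without knockout replicate 4. The other gene above wild type at the unadjusted threshold, Olfm4, a secreted crypt glycoprotein that neutrophils also hold, was at 0.48 (limma adjusted p = 0.231).

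**Figure D4:**
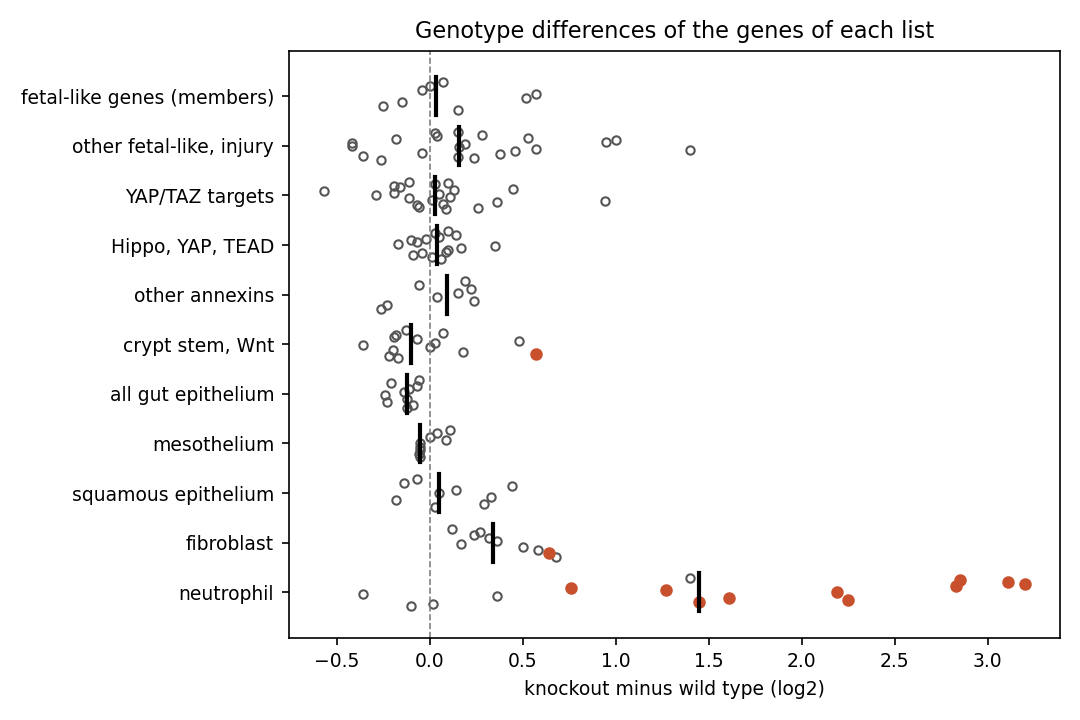
Genotype difference (log2) of each gene, by list, with filled points for genes at a limma adjusted p under 0.05 and a bar at the list's median. The fetal-like genes, the YAP/TAZ targets and the Hippo genes centre near 0 (medians 0.04, 0.03 and 0.04) and hold no call, whereas the neutrophil list has 10 calls.

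Markers of other cells that express some of these genes differed between the genotypes to varying degrees. Of 15 neutrophil markers 13 were above 0 and 2 below, with a median of 1.45. By limma 10 were called higher and 0 lower, beside 0.392% and 0.185% of all genes. The limma count was 6 without wild type replicate 2 and 2 with the pancreatic covariate. S100a9, a subunit of calprotectin, was the clearest at 3.11 (limma adjusted p = 0.000233). Neutrophils carry Anxa1 and Anxa3, whose differences were 0.15 and -0.25, and the part of these cells in the annexin signals was not tested. All 11 macrophage markers were above 0 (0.03 to 1.10, median 0.36), with 4 higher at the unadjusted limma threshold and 2 called. The calls were the integrin gene Itgam at 1.10 (limma adjusted p = 0.031) and the scavenger receptor gene Msr1 at 1.05 (limma adjusted p = 0.0186). The part of neutrophils in the Itgam and Msr1 signals was not tested. Neither was called by limma without wild type replicate 2, without knockout replicate 2 or with the pancreatic covariate, and Itgam and Msr1 were called in 3 and 6 of 8 fits without 1 array. All 8 smooth muscle markers were below 0 (median -0.36), with 0 called by limma and 4 lower at the unadjusted threshold. All 10 fibroblast markers were above 0 (median 0.34), with 1 called, Col1a2 at 0.64 (limma adjusted p = 0.0396, called in 2 of 8 fits without 1 array, those without wild type replicate 1 and without knockout replicate 3, and at 0.0778 with the mean of its probe sets). All 10 markers of gut epithelium were below 0, with a median of -0.12, 0 called by limma (2 lower at the unadjusted threshold) and an average of 10.82 to 10.96 in the knockout and 10.97 to 11.05 in wild type. Of 7 measured markers of colon epithelium, 6 were below 0, with a median of -0.18, and Muc2 was at -0.01. By limma 0 were called and 3 were lower at the unadjusted threshold, as were 8.1% of all genes. Aqp8 had the largest difference, -1.16 (limma adjusted p = 0.0543), followed by Slc26a3 at -0.62 (limma adjusted p = 0.112). This list averaged 10.56 to 10.88 in the knockout and 10.92 to 11.18 in wild type, without overlap. The epithelial share of the RNA and the level of the fetal-like genes per epithelial cell cannot be told apart here. The 3 pancreatic duct genes measured were also above 0, at 6.32 to 6.53 on average in the knockouts and 6.09 to 6.26 in wild type. By limma 0 were called and 2 were higher at the unadjusted threshold. Knockout replicate 3, with an acinar average of only 5.47, was at 6.32, so the duct genes did not follow the acinar genes in that mouse. Krt7, which ducts express, read 7.42, 7.17, 7.18 and 7.39 in knockout replicates 1 to 4 and 7.26 to 7.37 in wild type. The part of ducts in the Krt7 signal was not tested.

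Ly6a is known from endothelium, lymphocytes and interferon-treated cells as well, and the lists around it are given although it was not measured. Of its 9 relatives in the Ly6 family, 0 were called by limma (1 higher at the unadjusted threshold) and the median difference was -0.04. Endothelial markers (10 measured), T and NK cell markers (11) and interferon-stimulated genes (13) had medians of 0.13, 0.11 and 0.17, with 0 called by limma in each and 3, 3 and 5 higher at the unadjusted threshold. The interferon genes averaged 6.94 to 7.72 in wild type and 7.33 to 8.11 in the knockouts, with overlap.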

How the data were processed

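Total RNA of 8 mice was labelled with biotin and hybridised to 1 whole-transcript Affymetrix array each. The authors deposited log2 values made with RMA in Affymetrix Expression Console 1.4, per the submitters' processing notes. RMA subtracts background, gives all arrays the same distribution and compresses differences of dim or very bright probe sets. Detection calls, scan batches and raw scans were not analysed here. Of 41345 probe sets, 23521 had 1 gene symbol, and for genes with several probe sets the one with the highest mean was used, leaving 22180 genes.

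The genotype comparison used lmFit and eBayes of limma 3.58.1 (R 4.3.3) with no covariate. Benjamini-Hochberg adjustment ran over all 22180 genes, with a threshold of 0.05. In simulated data for this comparison, 54% of 50 genes changed by 0.5 and 88% of 50 changed by 1 (log2) were recovered, with 9 false calls among the unchanged genes of the 22180. The changed genes were drawn at random with their own SD, and 2.56% of all genes had an SD over 0.4. These shares therefore do not describe Sprr1a, Anxa8, Clu and Emp1, whose SD was over 0.4. The same simulation also held 50 genes changed by 2 and 50 changed by 3, and its noise was drawn independently for each gene. Recovery after adjustment depends on these settings, so the shares may not carry over to the real arrays. The members and the 22 gene lists were chosen with earlier results of these data known, so no list is independent evidence. 257 list entries were set and 236 measured. Text names the members, Trim58, genes with the 2 smallest p of a list and the 5 nearest profiles, and other genes (Epcam, Muc2, Lgr5, Krt17, Olfm4 and gene relatives) chosen after their values were seen. The replicate numbers do not pair the mice: deviations of same-numbered arrays correlated at -0.142, -0.16, 0.042 and 0.052 over genes.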

Additional observations from a re-analysis of the deposited data

Results flagged for a closer look

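In 3 of the 62 groups of 4 arrays examined, 1 array lay far from the other 3 by Dixon's criterion, which chance meets in about 1 of 20 groups. None of these was a value of a fetal-like gene. The pancreatic acinar average was 5.47 in knockout replicate 3 against 10.11 to 11.06 in the other knockouts. The pancreatic duct average was 6.26 in wild type replicate 1 against 6.09 to 6.10 in the other wild types. The smooth muscle average was 10.47 in wild type replicate 3 against 10.88 to 10.89, in the array that was also lowest for Clu.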

How the results depend on the processing

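Under all 18 alternatives, 0 of the 8 genes were called, and the lowest limma adjusted p was 0.162, for Emp1 with array weights. Of 144 values of single genes under these alternatives, 128 kept their direction. With the neutrophil average as a covariate, whose genotypes do not overlap and which widened the standard errors 3.24-fold to 3.56-fold, the values were 0.17 for Anxa3, 0.77 for Anxa8, -0.71 for Clu, -0.40 for Emp1, 0.48 for Krt7 and -1.86 for Sprr1a, the median of all 8 genes was 0.32, Lgr5 and Epcam were at 0.23 and 0.15, and Itgam and Msr1 at -0.51 and -0.03. No gene was called in that fit. The cause of these reversals was not tested. For Trim58, the other named genes and the list medians, these alternatives were run after seeing the data. Msln, at 0 to begin with, was at -0.00406 after repeated quantile normalization, -0.01 with equal array medians and -0.05 with the pancreatic covariate. Leaving out each array in turn, the differences ran from 0.04 to 0.20 for Anxa1, -0.30 to -0.18 for Anxa3, -0.37 to 0.01 for Anxa8, 0.30 to 0.64 for Clu, 0.45 to 0.76 for Emp1, -0.08 to 0.06 for Msln and -0.24 to 0.35 for Sprr1a, and that of Trim58 from -0.18 to 0.00285. The median of the 8 ran from -0.03 to 0.09.

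The count of called genes over the whole table was 128 (87 higher, 41 lower). It was 199 with array weights, 203 without the 33.3% of genes with the lowest mean, 2 with the pancreatic covariate and 25 to 252 without 1 array, the lowest without wild type replicate 2 and the highest without knockout replicate 3. The pancreatic mean was high in knockouts only, so that fit separates it from genotype through knockout replicate 3 alone. With the replicate number as a block the count was 64, of which 56 were higher. The block changed no call of a fetal-like gene. It ended the calls of Cd44, Col1a2, Itgam and Msr1 (limma adjusted p = 0.0578, 0.0561, 0.0854 and 0.0591), called Il33 (0.0241) and left 6 called neutrophil markers.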
